A study of Mus musculus with 16 samples.

Results

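The genes described here are 30 genes of myelin and of mature oligodendrocytes, the glial cells that wrap axons of the central nervous system in myelin. They were chosen by symbol, with earlier results of these data known. A transcript cluster, the set of probes that reads one locus, was assigned to a single gene for 29 of the 30 members, 1 cluster each. All 29 passed the filter on low levels, as members of the 20285 genes tested out of 30428 genes with such a cluster. Enpp2, which encodes the enzyme autotaxin, had no cluster listed to it alone and was not analysed here.

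RNA came from tdTomato-positive cells that were sorted by fluorescence from the brains of C57BL/6J mice aged 30 days, and it was hybridised to 16 Affymetrix mouse transcriptome arrays. The 4 groups, of 4 arrays each, were the PVCre line (PVCre/+; tdTomato/+) in dorsal striatum, the line with the genotype PV-tdTomato/+ (PVwt in the sample titles) in dorsal striatum, PVCre in motor and somatosensory cortex, and PVwt in the same cortical areas. In PVCre mice the reporter is switched on by Cre made in parvalbumin cells and then stays on, whereas in PVwt mice the reporter follows the parvalbumin promoter directly. Each array held the RNA of 2000 cells from a pool of 2 to 4 mice. All groups carried tdTomato, and none was a sort of oligodendrocytes. Whether 1 pool of mice gave both regions is not stated in the sources used here. P-values reflect only how much the pools varied. Levels are the authors' RMA values on the log2 scale, where 1 unit is a factor of 2, and background probe sets averaged between 2.95 and 6.10.

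Oligodendrocytes differentiate from precursor cells under a small set of transcription factors (Olig2, Sox10, Nkx6-2 and then Myrf), after which they make the proteins and the galactolipids of the myelin sheath. Many parvalbumin interneurons have myelinated axons, but the sheath is made by the oligodendrocyte and not by the neuron. The members are therefore genes of another cell type than the one the reporter marks. In RNA from many cells, fewer cells of a type and less RNA per cell cannot be told apart.

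Some arrays stood apart from their labels or their group. Pvalb, which encodes parvalbumin, lay between 6.70 and 8.40 in 6 arrays, namely replicates 2 and 4 of PVCre cortex and replicates 3 and 4 of both PVwt groups, and between 10.20 and 12.48 in the other 10. Gad1, a gene of GABA synthesis, lay between 7.40 and 14.43 in PVCre arrays and between 12.08 and 14.41 in PVwt arrays. Xist, a transcript of cells with 2 X chromosomes, was above 12 in 6 of 8 PVCre arrays and in 2 of 8 PVwt arrays, although all mice are labelled male. The distance between positive and negative control probe sets, a measure of array quality, was 3.08 to 3.93 in PVCre arrays and 4.16 to 4.84 in PVwt arrays, with no overlap. No batch is named in the labels, and any that went with the line and the line itself cannot be told apart.

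Promoter sequence is shown for 4 structural members, because these windows hold the letters of the Myrf motif and because Myrf and some of these genes differed between the lines in opposite directions. The windows are 100 bases from RefSeq, build GRCm38.p6, read 5′ to 3′ on the strand of the gene. Capitals mark the 7 letters CTGGCAC or CTGGTAC, or their reverse complement. Cnp (2′,3′-cyclic nucleotide phosphodiesterase) lies at chr11:100574812-100574911 on the plus strand. Hapln2 lies at chr3:88027602-88027701, Mag at chr7:30914923-30915022 and Mog at chr17:37023428-37023527, all on the minus strand.
Cnp: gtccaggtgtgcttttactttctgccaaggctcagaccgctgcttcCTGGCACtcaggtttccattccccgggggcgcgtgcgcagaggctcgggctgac
Hapln2: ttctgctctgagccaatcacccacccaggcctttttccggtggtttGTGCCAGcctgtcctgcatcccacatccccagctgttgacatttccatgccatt
Mag: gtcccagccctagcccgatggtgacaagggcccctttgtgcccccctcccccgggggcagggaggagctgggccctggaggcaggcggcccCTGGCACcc
Mog: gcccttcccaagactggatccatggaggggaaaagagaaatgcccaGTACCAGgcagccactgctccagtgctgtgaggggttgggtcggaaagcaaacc
The capitals begin 81 bases before the annotated start in Cnp, 144 in Hapln2, 9 in Mag and 83 in Mog. RefSeq promoters of 300 bases were found for 21 of the 29 members, 31 promoters in all. With both strands searched, CTGGCAC was present in 5 of these 31 (16.1%), which belong to Cnp, Hapln2, Mag and Opalin, and in 5.0% of all 32851 promoters. The 2 Mag promoters with these letters overlap and hold the same site, and a further Mag promoter lacks it. By gene the share was thus 4 of 21 (19.0%), beside 5.7% of all genes with a promoter. The form CTGGTAC was present in 3.2% of member promoters, that of Mog, and in 2.2% of all. ACAAAG, the core of the SoxE motif bound by Sox10, was present in 25.8% of member promoters and in 18.7% of all. CAGCTG, one form of the CANNTG E-box that Olig factors bind and therefore counted within it, was present in 16.1% and 16.3%, and CANNTG itself in 77.4% and 72.3%. These matches describe letters in the windows and show no binding.

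Every array held high levels of most members. The mean level over the 29 members was 12.73, 12.46, 12.45 and 12.50 in PVCre striatum, against 11.12, 11.00, 13.07 and 13.14 in PVwt striatum. In cortex it was 13.21, 13.39, 13.03 and 13.45 in PVCre, against 11.40, 11.45, 13.60 and 13.21 in PVwt. The PVCre arrays of a region lay close together, while PVwt replicates 1 and 2 lay below all PVCre arrays of their region and PVwt replicates 3 and 4 lay above all of them in striatum. In cortex PVwt replicate 3 lay above the PVCre arrays and replicate 4 within their range. Gjb1, at background in the mean of both PVwt groups, and Hapln2, at background in that of PVwt striatum, were the 2 members with a group mean at or under 6.10.

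**Figure D1:**
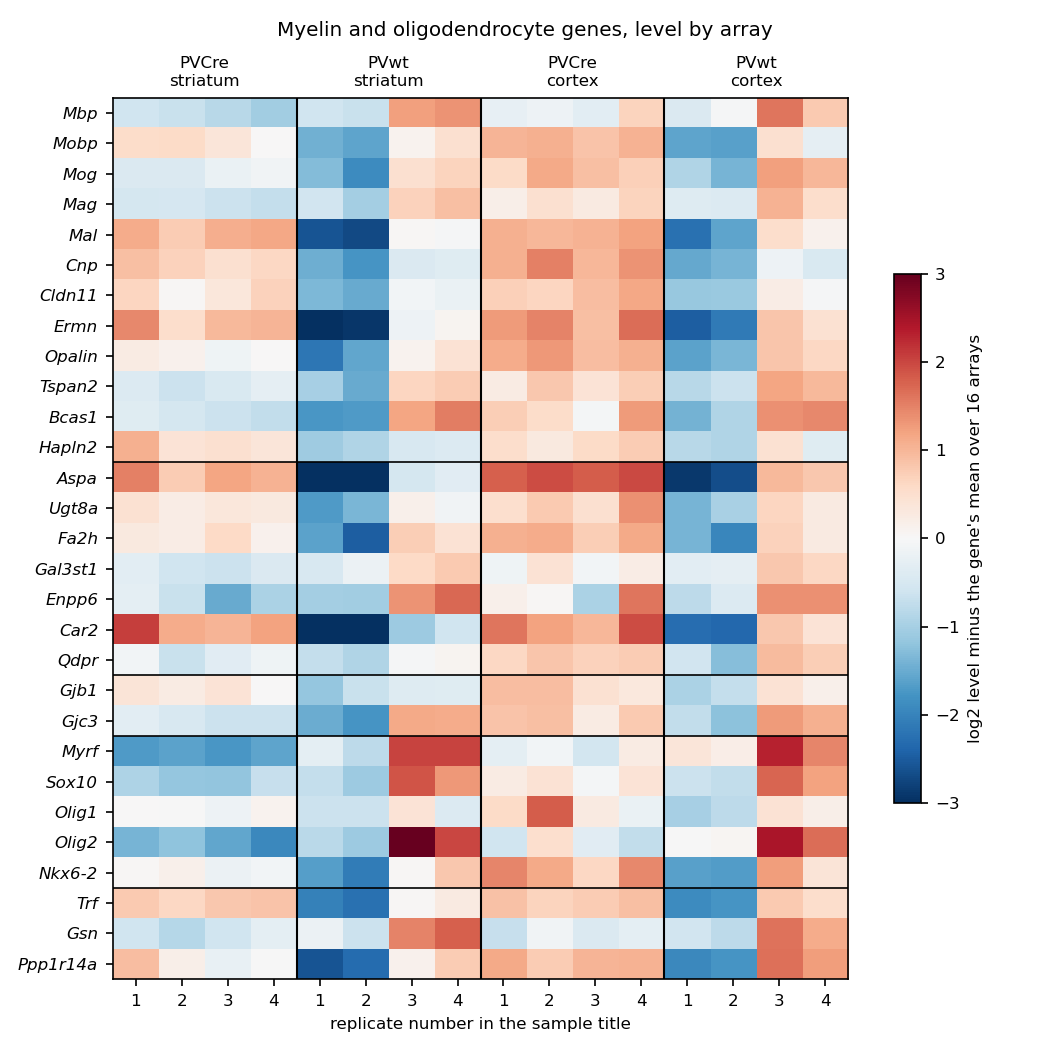
Each row is 1 of the 29 members and each column 1 array, with the log2 level minus that gene's mean over the 16 arrays in colour (red above, blue below; values beyond 3 take the end colour). Horizontal lines separate structural proteins, enzymes, gap junction proteins, transcription factors and the 3 other members; PVwt replicates 1 and 2 are bluer than replicates 3 and 4 in every row of both regions.

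In striatum, 9 of the 29 members rose in PVCre against PVwt cells and 2 fell. Those that rose were the structural genes Mal, Cnp, Cldn11, Ermn and Hapln2, the enzymes Car2 and Aspa, the gap junction gene Gjb1 and the transferrin gene Trf. Those that fell were the transcription factor genes Myrf and Olig2. In cortex, 11 members rose and 0 fell: 7 structural genes (Mobp, Mal, Cnp, Cldn11, Ermn, Opalin and Hapln2), 3 enzymes (Aspa, Car2 and Ugt8a) and Gjb1. These calls are at an adjusted p under 0.05 in limma over all genes, where 18.3% of genes were called higher and 35.1% lower in striatum, and 19.1% higher and 34.4% lower in cortex. The median difference of the members was 0.71 in striatum and 0.93 in cortex, beside -0.23 and -0.22 over all genes. In all, 8 members rose in both regions, of the 9 that rose in striatum and the 11 in cortex. The share of all genes that rose in both was not computed. Since 53.3% of all genes were called in striatum and 53.5% in cortex, this overlap is not read as a trait of the members. The 2 regions' line effects were compared directly as the difference of differences, which was called in 0.197% of genes and in 0 of the 29 members, with 0 members at an unadjusted p under 0.05. With the PVwt replicate numbers as a block, described with the regions, 1 member passed, Sox10 (-1.20 ± 0.21, adjusted p = 0.028). In that fit 0.34% of all genes were called above 0 and 0.202% below.

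**Figure D2:**
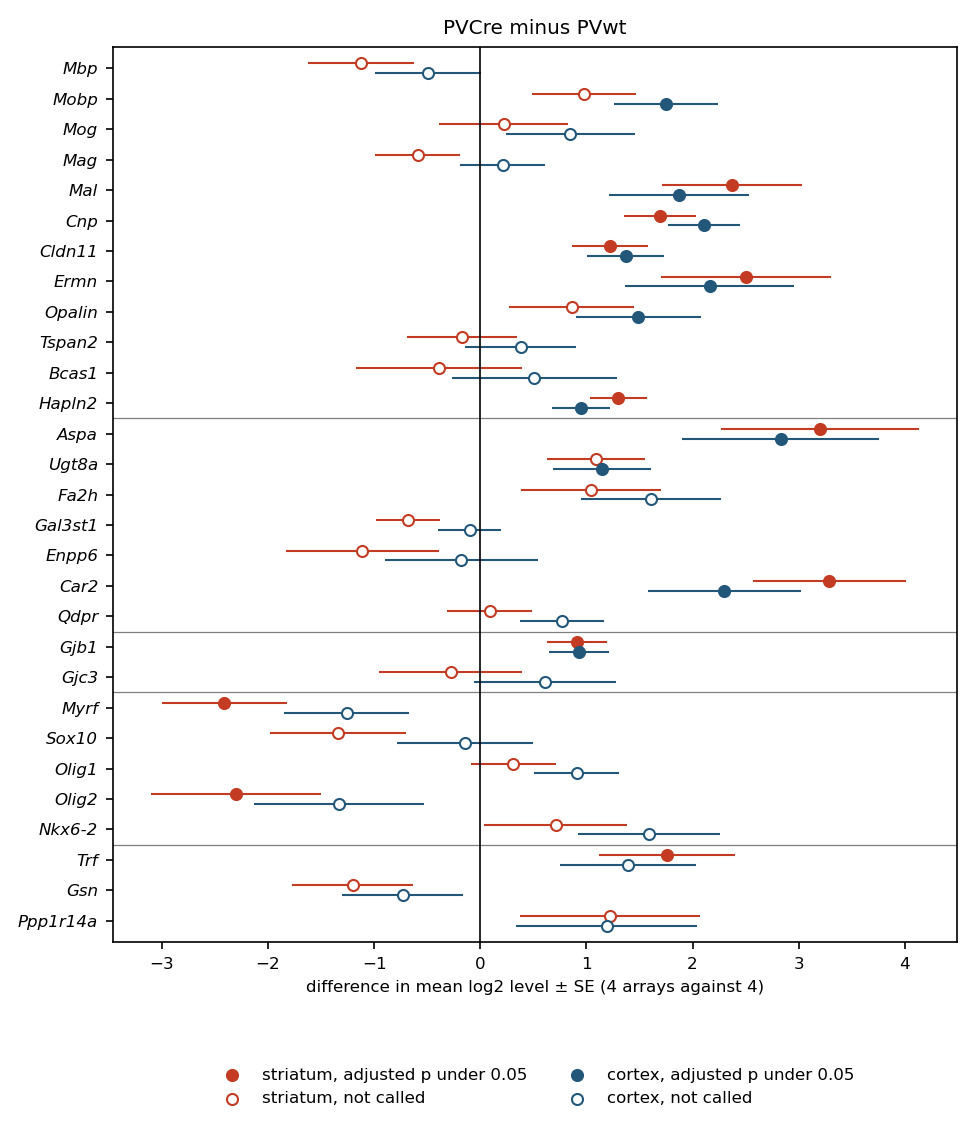
The difference PVCre minus PVwt in mean log2 level ± SE (4 arrays against 4) is shown for each member, in striatum (red) and cortex (blue), with filled points where the limma adjusted p was under 0.05. Filled points lie to the right of 0 except for Myrf and Olig2 in striatum.

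Among the proteins of the myelin membrane, Mal, a proteolipid of compact myelin that takes part in membrane traffic, was at 18.27, 17.91, 18.24 and 18.30 in PVCre striatum, against 14.55, 14.42, 17.18 and 17.11 in PVwt striatum. All PVCre arrays were higher than all PVwt arrays, and the difference was 2.37 ± 0.66 (log2, ± SE), a 5.15-fold higher level with an adjusted p of 0.0079 in limma. In cortex Mal was at 18.21, 18.14, 18.18 and 18.35 in PVCre, against 14.90, 15.57, 17.67 and 17.28 in PVwt, again without overlap (1.87 ± 0.66, adjusted p = 0.028 in limma). Ermn, which encodes the cytoskeletal protein ermin, had the widest line difference of the structural members in striatum. Its levels there were 15.53, 14.60, 15.06 and 15.09 in PVCre, against 11.05, 11.17, 13.92 and 14.16 in PVwt. The groups did not overlap, and Ermn was 5.64-fold higher in PVCre (2.50 ± 0.80, adjusted p = 0.016 in limma). In cortex its levels were 15.35, 15.56, 14.99 and 15.77 in PVCre, against 11.62, 11.95, 14.91 and 14.54 in PVwt, also without overlap (2.16 ± 0.80, adjusted p = 0.033 in limma).

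Cnp, whose promoter window is printed first, encodes an enzyme of non-compact myelin and was measured with the least spread of the structural genes that rose by more than 1 in both regions. In striatum Cnp was at 10.59, 10.36, 10.15 and 10.31 in PVCre cells, against 8.21, 7.90, 9.24 and 9.31 in PVwt cells. In cortex Cnp was at 10.75, 11.19, 10.66 and 11.03 in PVCre, against 8.13, 8.29, 9.53 and 9.23 in PVwt. In both regions the lowest PVCre array lay above the highest PVwt array. The group means differed 3.22-fold in striatum (1.69 ± 0.34, adjusted p = 0.0009 in limma) and 4.33-fold in cortex (2.11 ± 0.34, adjusted p = 0.00016 in limma). Cldn11, the claudin of the tight junctions between myelin layers, was at 17.92, 17.32, 17.63 and 17.98 in PVCre striatum, against 15.93, 15.78, 17.20 and 17.09 in PVwt striatum. In cortex it was at 17.99, 17.93, 18.20 and 18.44 in PVCre, against 16.15, 16.18, 17.50 and 17.25 in PVwt. Neither region's groups overlapped, and the differences were 1.22 ± 0.36 in striatum (adjusted p = 0.011 in limma) and 1.37 ± 0.36 in cortex (adjusted p = 0.0054). Hapln2, a link protein of the matrix at the node of Ranvier, was near background in PVwt cells. It was at 7.73, 7.06, 7.14 and 7.02 in PVCre striatum, against 5.59, 5.76, 6.16 and 6.25 in PVwt striatum, where 2 arrays were at or under 6.10, and the groups did not overlap (1.30 ± 0.27, adjusted p = 0.00099 in limma). In cortex Hapln2 was at 7.18, 6.95, 7.22 and 7.41 in PVCre, against 5.83, 5.75, 7.11 and 6.28 in PVwt, and PVwt replicate 3 lay within the PVCre range (0.95 ± 0.27, adjusted p = 0.0082 in limma).

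Mobp and Opalin passed the test in cortex but not in striatum, a contrast between regions that was itself not called. Mobp, which encodes a basic protein of the major dense line of myelin, was at 16.59, 16.65, 16.42 and 16.62 in PVCre cortex, against 14.00, 13.93, 16.04 and 15.30 in PVwt cortex (1.75 ± 0.49, adjusted p = 0.0077 in limma). Opalin, a membrane glycoprotein of mature oligodendrocytes, was at 17.65, 17.85, 17.47 and 17.60 in PVCre cortex, against 14.92, 15.17, 17.36 and 17.17 in PVwt cortex (1.49 ± 0.59, adjusted p = 0.046 in limma). The Opalin call was lost in 6 of 12 other settings, among them quantile normalization, array weights and the replicate block, and in 10 of 16 fits with 1 array left out (adjusted p up to 0.15), and the Mobp call in 3 of 12 and in 0 of 16. For both genes the cortical groups did not overlap, with PVwt replicates 3 and 4 nearer to the PVCre arrays than replicates 1 and 2. Their striatal differences were 0.98 ± 0.49 for Mobp (adjusted p = 0.1 in limma) and 0.86 ± 0.59 for Opalin (adjusted p = 0.23), and the striatal arrays overlapped.

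The other 5 structural members did not pass the test in either region. Mbp, the basic protein that holds the cytoplasmic faces of compact myelin together, was at 10.65, 10.58, 10.41 and 10.20 in PVCre striatum, against 10.66, 10.59, 12.47 and 12.60 in PVwt striatum (-1.12 ± 0.50, adjusted p = 0.07 in limma). In cortex Mbp was at 11.01, 11.10, 10.93 and 11.92 in PVCre, against 10.81, 11.21, 12.85 and 12.04 in PVwt (-0.49 ± 0.50, adjusted p = 0.42). The PVCre arrays of both regions lay below PVwt replicates 3 and 4 and overlapped replicates 1 and 2. Mag, a sialic acid-binding adhesion protein that faces the axon, was at 15.56, 15.58, 15.45 and 15.37 in PVCre striatum, against 15.52, 15.06, 16.77 and 16.99 in PVwt striatum (-0.59 ± 0.40, adjusted p = 0.22 in limma). The differences of Mog, a glycoprotein of the outermost myelin surface, were 0.22 ± 0.61 in striatum and 0.85 ± 0.61 in cortex. Those of Tspan2, a tetraspanin, were -0.17 ± 0.52 and 0.38 ± 0.52, and those of Bcas1, a marker of early myelinating cells, -0.39 ± 0.78 and 0.51 ± 0.78. For Mog, Tspan2 and Bcas1 the 4 PVCre striatal arrays lay in the gap between PVwt replicates 1 and 2 and replicates 3 and 4.

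Car2 and Aspa had the widest line differences of all members. Car2 encodes carbonic anhydrase II, the soluble carbonic anhydrase of oligodendrocytes, and was at 13.11, 12.16, 12.07 and 12.24 in PVCre striatum, against 7.99, 8.03, 9.95 and 10.45 in PVwt striatum. The difference was 3.29 ± 0.72, or 9.80-fold (adjusted p = 0.0016 in limma), and it was 3.52 relative to the median of all genes. In cortex Car2 was at 12.66, 12.24, 12.05 and 12.99 in PVCre, against 8.76, 8.69, 11.85 and 11.45 in PVwt, a 4.93-fold difference (2.30 ± 0.72, adjusted p = 0.015 in limma). The groups did not overlap in either region. Aspa encodes aspartoacylase, which splits N-acetylaspartate from neurons into acetate and aspartate. Its levels were 15.00, 14.24, 14.65 and 14.52 in PVCre striatum, against 9.73, 9.81, 12.94 and 13.15 in PVwt striatum, a 9.16-fold difference without overlap (3.20 ± 0.93, adjusted p = 0.0097 in limma). In cortex they were 15.28, 15.44, 15.30 and 15.45 in PVCre, against 10.59, 10.82, 14.46 and 14.30 in PVwt, also without overlap (2.83 ± 0.93, adjusted p = 0.019 in limma). The SD of Car2 in striatum was 0.48 in PVCre and 1.28 in PVwt, and that of Aspa in cortex was 0.09 in PVCre and 2.13 in PVwt (n = 4 each).

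The other enzymes make or cleave myelin lipids, apart from Qdpr, which regenerates tetrahydrobiopterin. Ugt8a, the transferase that makes galactosylceramide, was at 13.87, 14.15, 13.85 and 14.74 in PVCre cortex, against 11.97, 12.39, 14.01 and 13.62 in PVwt cortex (1.15 ± 0.46, adjusted p = 0.046 in limma). PVwt replicate 3 lay within the PVCre range there. This call was lost in 5 of 12 other settings, quantile normalization and array weights among them, and in 10 of 16 fits with 1 array left out (adjusted p up to 0.15). In striatum Ugt8a was at 13.82, 13.59, 13.69 and 13.65 in PVCre, against 11.65, 11.98, 13.52 and 13.24 in PVwt, where the groups did not overlap but the adjusted p was 0.059 (1.09 ± 0.46). Fa2h, which adds the 2-hydroxyl group to the fatty acids of these lipids, had differences of 1.04 ± 0.66 in striatum and 1.61 ± 0.66 in cortex (adjusted p = 0.2 and 0.054 in limma). Gal3st1, which sulfates galactosylceramide to sulfatide, had differences of -0.68 ± 0.30 and -0.10 ± 0.30. Enpp6, a choline phosphodiesterase of newly formed oligodendrocytes, had -1.11 ± 0.72 and -0.18 ± 0.72, and Qdpr had 0.09 ± 0.40 and 0.77 ± 0.40. None of these 4 enzymes passed the test in either region.

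Of the 2 gap junction genes, Gjb1 (connexin 32) was at 6.44, 6.30, 6.47 and 6.06 in PVCre striatum, against 4.89, 5.38, 5.66 and 5.68 in PVwt striatum, where all 4 PVwt arrays were at or under 6.10. The groups did not overlap (0.91 ± 0.28, adjusted p = 0.014 in limma). In cortex Gjb1 was at 6.99, 6.99, 6.52 and 6.36 in PVCre, against 5.11, 5.34, 6.49 and 6.20 in PVwt, with PVwt replicate 3 inside the PVCre range (0.93 ± 0.28, adjusted p = 0.013). Since levels at background carry little signal, the size of the Gjb1 difference is poorly known. Gjc3, another connexin of oligodendrocytes, had differences of -0.28 ± 0.67 in striatum and 0.61 ± 0.67 in cortex, neither past the threshold.

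**Figure D3:**
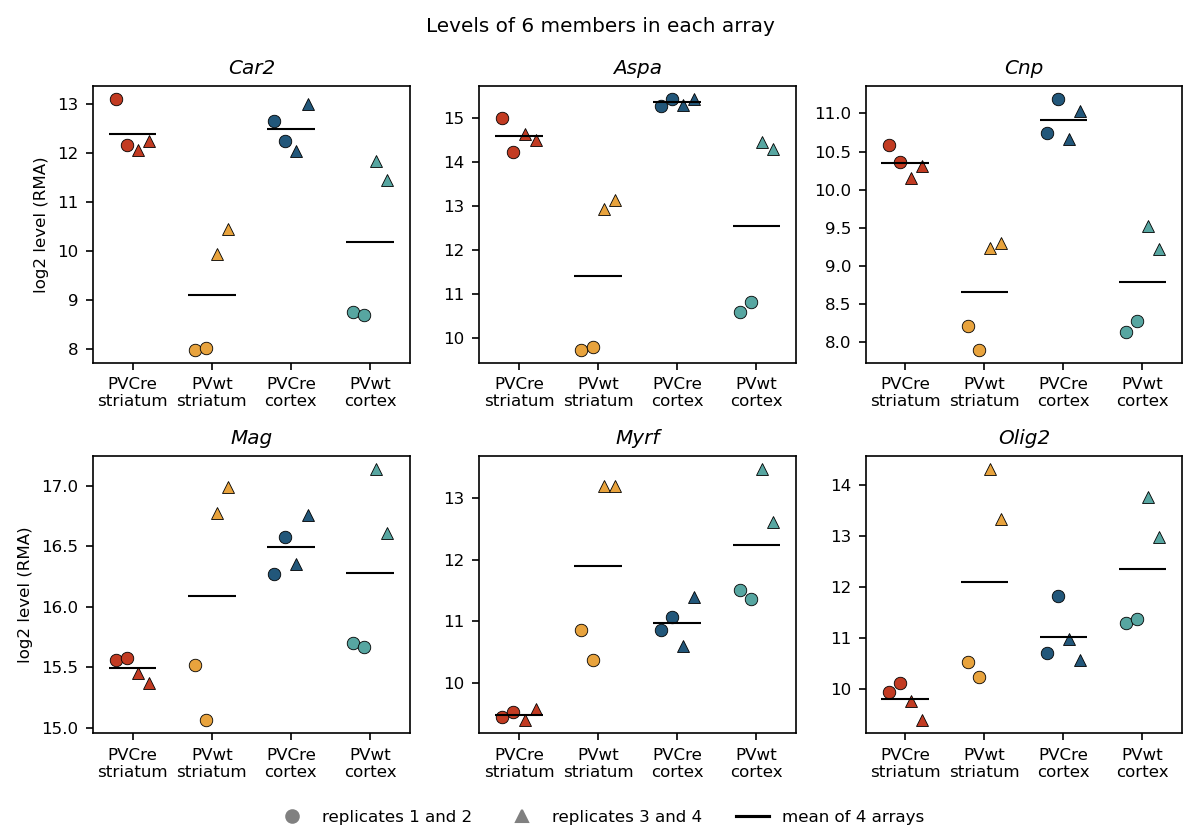
Log2 levels of Car2, Aspa, Cnp, Mag, Myrf and Olig2 are plotted for each array by group, with replicates 1 and 2 as circles, replicates 3 and 4 as triangles and a line at the mean of 4; each panel has its own axis, which does not start at 0. For Car2, Aspa and Cnp all PVCre points lie above the PVwt points of their region, and for Myrf and Olig2 the 4 PVCre striatal points lie below all PVwt striatal points.

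Of the 5 transcription factor genes, Myrf and Olig2 fell in striatum and none rose in either region. Myrf, the membrane-bound factor that turns on myelin genes in maturing oligodendrocytes, was at 9.46, 9.54, 9.40 and 9.58 in PVCre striatum, against 10.86, 10.38, 13.18 and 13.19 in PVwt striatum. Every PVCre array was below every PVwt array, and Myrf was 5.31-fold lower in PVCre (-2.41 ± 0.59, adjusted p = 0.0035 in limma). In cortex Myrf was at 10.86, 11.08, 10.60 and 11.40 in PVCre, against 11.52, 11.36, 13.46 and 12.62 in PVwt, with overlap (-1.26 ± 0.59, adjusted p = 0.088 in limma). Olig2, a basic helix-loop-helix factor of the whole oligodendrocyte lineage, precursors included, was at 9.93, 10.12, 9.75 and 9.38 in PVCre striatum, against 10.51, 10.23, 14.31 and 13.32 in PVwt striatum. The striatal groups did not overlap, and Olig2 was 4.93-fold lower in PVCre (-2.30 ± 0.80, adjusted p = 0.025 in limma). The striatal Olig2 call was lost in 6 of 12 other settings, among them both other scalings (adjusted p = 0.053 under median centring and 0.11 after quantile normalization), array weights and the replicate block, and in 3 of 16 fits with 1 array left out. In cortex Olig2 was at 10.71, 11.82, 10.98 and 10.57 in PVCre, against 11.29, 11.36, 13.76 and 12.98 in PVwt (-1.33 ± 0.80, adjusted p = 0.17).

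Sox10, a factor that the lineage keeps at all stages, was at 11.10, 10.85, 10.84 and 11.32 in PVCre striatum, against 11.31, 10.93, 13.91 and 13.31 in PVwt striatum (-1.34 ± 0.64, adjusted p = 0.093 in limma). In cortex its difference was -0.14 ± 0.64. Nkx6-2, a homeobox factor that is kept in mature cells, had differences of 0.71 ± 0.67 in striatum and 1.59 ± 0.67 in cortex (adjusted p = 0.39 and 0.057 in limma), and Olig1 had 0.31 ± 0.40 and 0.91 ± 0.40. Nkx6-2 and Olig1 thus had differences above 0 in both regions, and the other 3 factors below 0. The median over the 5 factors was -1.34 in striatum and -0.14 in cortex, beside 0.92 and 1.16 over the 12 structural members. Of the 4 genes whose promoter windows are printed, Cnp and Hapln2 rose in striatum while Myrf fell there, and Mag and Mog did not pass the test.

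Trf, which encodes the iron carrier transferrin that oligodendrocytes make, was at 15.84, 15.67, 15.85 and 15.89 in PVCre striatum, against 13.02, 12.81, 15.07 and 15.30 in PVwt striatum, without overlap (1.76 ± 0.64, adjusted p = 0.031 in limma). The call was lost in 3 of 12 other settings, quantile normalization among them, and in 6 of 16 fits with 1 array left out, those without PVwt striatum replicate 1 or 2 or any PVCre striatal array (adjusted p up to 0.099). In cortex its difference was 1.39 ± 0.64 (adjusted p = 0.079). Gsn, the actin-severing protein gelsolin, had differences of -1.20 ± 0.57 in striatum and -0.73 ± 0.57 in cortex. Those of Ppp1r14a, an inhibitor of myosin phosphatase, were 1.22 ± 0.85 and 1.19 ± 0.85. Neither Gsn nor Ppp1r14a passed the test in a region.

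Counted without a fit, 10 members had every PVCre striatal array above every PVwt striatal array (17.0% of all genes did so) and 2 had every one below (33.2%). In cortex 9 members lay wholly above (17.3% of genes) and 0 wholly below (29.7%).

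Genes of the same cell lineage outside the 29 were counted beside them. Of 35 other mature oligodendrocyte genes tested, 7 rose and 8 fell in PVCre striatum, and 8 rose and 3 fell in PVCre cortex, with median differences of -0.14 and 0.30. The rises were near the shares of all genes called higher (18.3% in striatum and 19.1% in cortex). The falls were under the shares called lower (35.1% and 34.4%), so these counts are not read as a trait of the list. Klk6, a secreted protease, rose in striatum by 2.97 ± 0.38, and Adamts4, another protease, was lower (-3.20 ± 0.49; adjusted p = 2e-05 and 9.8e-05 in limma). Apod, the lipid carrier apolipoprotein D, rose in cortex (3.09 ± 0.80), as did Tmeff2 (2.13 ± 0.40). Of 24 further genes of myelin lipid synthesis and turnover, 4 rose and 11 fell in each region, with medians of -0.62 in striatum and -0.63 in cortex. Their rises were likewise near the shares of all genes, while their falls were above them. Fasn, the fatty acid synthase, was lower in PVCre striatum (-2.99 ± 0.30), and Gpd1, a glycerol-3-phosphate dehydrogenase, was lower in PVCre cortex (-2.74 ± 0.26). Arsa, the lysosomal enzyme that degrades sulfatide, was lower in both regions (-1.14 ± 0.11 and -1.12 ± 0.11) but was at background in the PVCre groups.

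Markers of oligodendrocyte precursors fell in all 11 cases of 11 tested in both regions, with median differences of -3.74 in striatum and -3.35 in cortex. Lhfpl3 was lower in PVCre in striatum (-4.61 ± 0.85) and in cortex (-6.07 ± 0.85), as was Tnr, a gene of the extracellular matrix, in striatum (-5.09 ± 0.83). The mean level of the 11 precursor markers was 7.15 to 7.47 in PVCre striatum and 7.27 to 8.08 in PVCre cortex, against 9.10 to 12.67 in PVwt striatum and 9.78 to 12.78 in PVwt cortex. Cspg4, C1ql1 and Matn4 were at background in both PVCre groups, and none of the 11 was in a PVwt group. The precursor level also set the PVwt replicates apart, at 9.10 to 10.08 in replicates 1 and 2 and 11.91 to 12.78 in replicates 3 and 4.

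Markers of other cell types were also counted by line, where 18.3% of all genes were called higher and 35.1% lower in striatum. In cortex 19.1% of all genes were called higher and 34.4% lower. All 11 microglia markers tested rose in PVCre in both regions, and their mean level was 7.39 to 9.50 in PVCre arrays, against 5.36 to 5.87 in PVwt arrays, where 9 of 11 were at background. Of 11 endothelial and pericyte markers tested, 9 rose and 1 fell in striatum, and 1 rose and 1 fell in cortex. Among astrocyte markers 0 rose and 2 fell of 10 tested in striatum and 0 rose and 3 fell in cortex, and Gfap, Aldh1l1, Gja1 and Gjb6 were at background in every group. Of the 10 general neuron markers, 1 rose and 2 fell in striatum, and 1 rose and 5 fell in cortex. Among 11 markers of parvalbumin and GABA neurons, 0 rose and 2 fell in striatum and 0 rose and 5 fell in cortex. The counts of astrocyte markers, of both neuron lists in striatum, and of endothelial and pericyte markers in cortex were not above the shares of all genes. Those counts are therefore not read as a change of the cell type. The part of these cell types in the members' differences was not tested.

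The calls by line depended on the scaling and on which arrays were used. With each array centred on its median, the median over all genes was 0.09 in striatum and 0.12 in cortex, and 58.4% and 61.5% of called genes were higher in PVCre, in place of 34.2% and 35.7%; after quantile normalization these shares were 49.3% and 52.3%. Under median centring 11 members rose and 1 fell in striatum (30.3% of all genes higher, 21.6% lower), and 16 rose and 0 fell in cortex (32.8% and 20.5%). After quantile normalization 7 members rose and 1 fell in striatum (23.5% of all genes higher, 24.2% lower). In cortex 7 then rose and 0 fell (26.0% and 23.7%). The share of the 29 members that rose was then close to that of all genes in both regions. Without the 6 arrays lowest in Pvalb, an alternative chosen after the data were seen, 20 members rose and 2 fell in striatum (16.9% of all genes higher, 39.1% lower), and 23 rose and 1 fell in cortex (17.0% and 29.3%). Of the PVwt arrays this keeps only replicates 1 and 2 of each region. All 29 members were lower there than in replicates 3 and 4. The added rises therefore follow from the choice of arrays and are no further support. In that fit Car2 and Aspa kept their direction, and Myrf was the member that fell in cortex (-0.71 ± 0.18). With the control distance of each array as a covariate, which had no overlap between the lines, 0 members rose and 4 fell in striatum (10.4% of all genes higher, 17.1% lower), and 0 rose and 1 fell in cortex (10.4% and 16.1%). In cortex, 5 members passed without PVwt replicate 1, 5 without PVwt replicate 2 and 7 without PVCre replicate 1. Of the 16 fits with 1 array left out, the striatal calls were lost for Ermn in 2, and the cortical calls for Mal in 4, Ermn in 5, and Aspa and Car2 in 2 each, besides those given for Olig2, Trf, Opalin and Ugt8a. The other 13 calls by line were lost in 0 of the 16. Other settings removed some calls as well. Under quantile normalization those of Cldn11 and Ermn in both regions and of Mal and Mobp in cortex were lost. With array weights the cortical Ermn call was lost, and with the replicate block the Gjb1 calls of both regions. Without the 8 arrays high in Xist, which leaves 1 PVCre array in each region whose spread is taken from the other groups, 0 members passed in striatum (6.37% of all genes higher, 11.9% lower) and 2 rose in cortex (9.27% higher). In that fit 3 members moved by more than 0.5 in striatum and 16 in cortex, with changes of -0.24 (Qdpr) to 1.06 (Olig2) and of 0.04 (Cldn11) to 1.44 (Olig1). Olig2 was at -1.24 ± 1.30 in striatum and -0.06 ± 1.30 in cortex there, Myrf at -1.94 ± 1.10 and -0.75 ± 1.10, and Car2 at 3.34 ± 1.40 and 2.61 ± 1.40.

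PVwt replicates 3 and 4 had more of every member than replicates 1 and 2. This split of the PVwt arrays is no group of the study and was proposed with these values known, so it is described by ranges and not tested. In all 29 members the lowest of the 4 arrays numbered 3 and 4, over both regions, was above the highest of the 4 numbered 1 and 2; the same holds for 16.1% of all genes. Olig2 was at 13.32 to 14.31 in replicates 3 and 4 of PVwt striatum and 10.23 to 10.51 in replicates 1 and 2. In PVwt cortex Olig2 was at 12.98 to 13.76 in replicates 3 and 4 and 11.29 to 11.36 in replicates 1 and 2. Aspa was at 14.30 to 14.46 in replicates 3 and 4 of PVwt cortex and 10.59 to 10.82 in replicates 1 and 2, and Qdpr at 13.70 to 13.91 and 11.68 to 12.39. The same 4 arrays were those low in Pvalb among the PVwt arrays.

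Set against this split, the PVCre arrays did not sit at one place for all members. In striatum 10 members were above every PVwt array, 6 were above replicates 1 and 2 and overlapped replicates 3 and 4 (4.22% of all genes), and 5 lay in the gap between the pairs (1.31% of all genes). A further 6 lay below replicates 3 and 4 and overlapped replicates 1 and 2 (5.95%), and 2 lay below every PVwt array. In cortex these counts were 9 above every PVwt array, 9 overlapping replicates 3 and 4 only (8.11% of genes), 6 in the gap (1.06% of genes), 4 overlapping replicates 1 and 2 only (8.21%), and 1 (Enpp6) overlapping both (35.6%). Members at the top were structural genes and enzymes such as Mal, Cnp, Ermn, Aspa and Car2, and Mbp, Myrf, Olig2 and Gsn lay below replicates 3 and 4 in both regions.

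**Figure D4:**
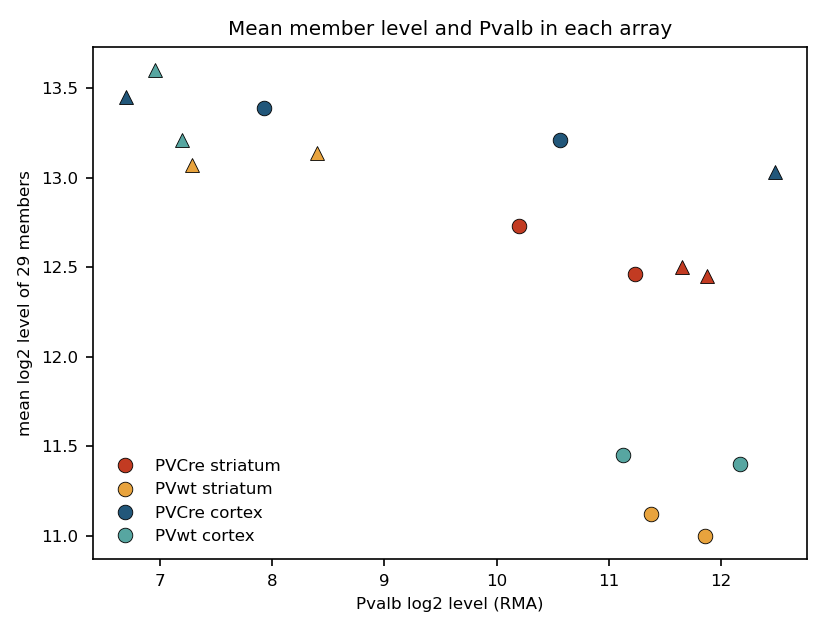
The mean log2 level of the 29 members is plotted against the log2 level of Pvalb in each array, with replicates 1 and 2 as circles and replicates 3 and 4 as triangles. The 6 arrays with Pvalb at 8.40 or less have mean member levels of 13.07 to 13.60, and among the other 10 the PVCre arrays, at 12.45 to 13.21, lie above the 4 PVwt arrays, at 11.00 to 11.45.

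Arrays with little Pvalb had high mean member levels, from 13.07 to 13.60 in the 6 lowest. Among the 10 arrays with Pvalb at 10.20 or more, the members averaged 12.45 to 12.73 in PVCre striatum and 13.03 to 13.21 in PVCre cortex replicates 3 and 1, against 11.00 to 11.12 in PVwt striatum and 11.40 to 11.45 in PVwt cortex. The arrays fall into separate clusters, so no correlation is given.

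Between regions, 0 of the 29 members passed the test when all arrays were fitted without pairing. Over both lines this depended on the fit: 14 members were lower in striatum with the PVwt replicate numbers as a block (3.84% of all genes were), 15 with the numbers of both lines as a block (4.54%) and 23 with array weights (11.7%). Over both lines the difference striatum minus cortex was below 0 in 28 of 29 members, with a median of -0.58 beside 0.00 over all genes, where 4.26% of genes were called. Unadjusted p was under 0.05 for 2 members, Qdpr (-0.69 ± 0.28) and Myrf (-0.91 ± 0.42), whose adjusted p was 0.24 and 0.32 in limma. In PVCre cells alone the difference was below 0 in 28 of 29 members, with a median of -0.77; 3.90% of genes were called and 3 members (Myrf, Mag and Qdpr) had an unadjusted p under 0.05. In PVwt cells it was below 0 in 27, with a median of -0.31; 2.33% of genes were called and 0 members had an unadjusted p under 0.05.

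Replicates spread less in PVCre than in PVwt, with a median SD over the members of 0.19 and 1.28 in striatum and 0.25 and 1.21 in cortex. In PVCre cells, 18 of 29 members had every striatal array below every cortical array, as did 7.41% of all genes, and in PVwt cells 0 did (2.27%). Myrf was at 9.46, 9.54, 9.40 and 9.58 in PVCre striatum, against 10.86, 11.08, 10.60 and 11.40 in PVCre cortex, a difference of -1.49 ± 0.59 with an adjusted p of 0.23 in limma. When only the 8 PVCre arrays were fitted, 14 members were lower in striatum (2.19% of genes were), among them Myrf (adjusted p = 0.0027) and Sox10 (-1.25 ± 0.16, adjusted p = 0.0046). Mag was at 15.56, 15.58, 15.45 and 15.37 in PVCre striatum, against 16.27, 16.58, 16.36 and 16.76 in PVCre cortex (-1.0 ± 0.40, adjusted p = 0.23 with all arrays). Mal, Trf and Car2 had differences nearer to 0 in PVCre cells, of -0.04 ± 0.66, -0.03 ± 0.64 and -0.09 ± 0.72. Without the 6 arrays lowest in Pvalb, 9 members were lower in PVCre striatum (1.40% of genes) and 10 over both lines (3.23%).

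In PVwt cells the replicate numbers of the 2 regions were treated as pairs, since deviations of same-numbered arrays correlated in all 4 pairs. However, striatal replicates 1 and 2 both matched cortical replicate 1 best, and 3 and 4 both matched 3. The correlations thus cannot tell pairing by number from the split of replicates 1 and 2 from 3 and 4. Results with this block hold only if the numbers are pairs. With these pairs as a block and the PVCre arrays unpaired, a fit added after the data were seen, Aspa was lower in striatum (-1.14 ± 0.16, adjusted p = 0.0014), 1 of 29 members where 0.927% of genes were. Car2 had -1.08 ± 0.28 (adjusted p = 0.071) there, and an adjusted p of 0.046 when the PVCre numbers, which do not pair the samples, were blocked as well. Aspa was at 9.73, 9.81, 12.94 and 13.15 in PVwt striatum, against 10.59, 10.82, 14.46 and 14.30 in PVwt cortex, and was lower in all 4 pairs. Car2 was at 7.99, 8.03, 9.95 and 10.45 in PVwt striatum, against 8.76, 8.69, 11.85 and 11.45 in PVwt cortex, and was likewise lower in all 4. Whether the lines differ in the regional difference was tested as the difference of differences, already given, which had a median of -0.58 over the members and -0.03 over all genes.

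**Figure D5:**
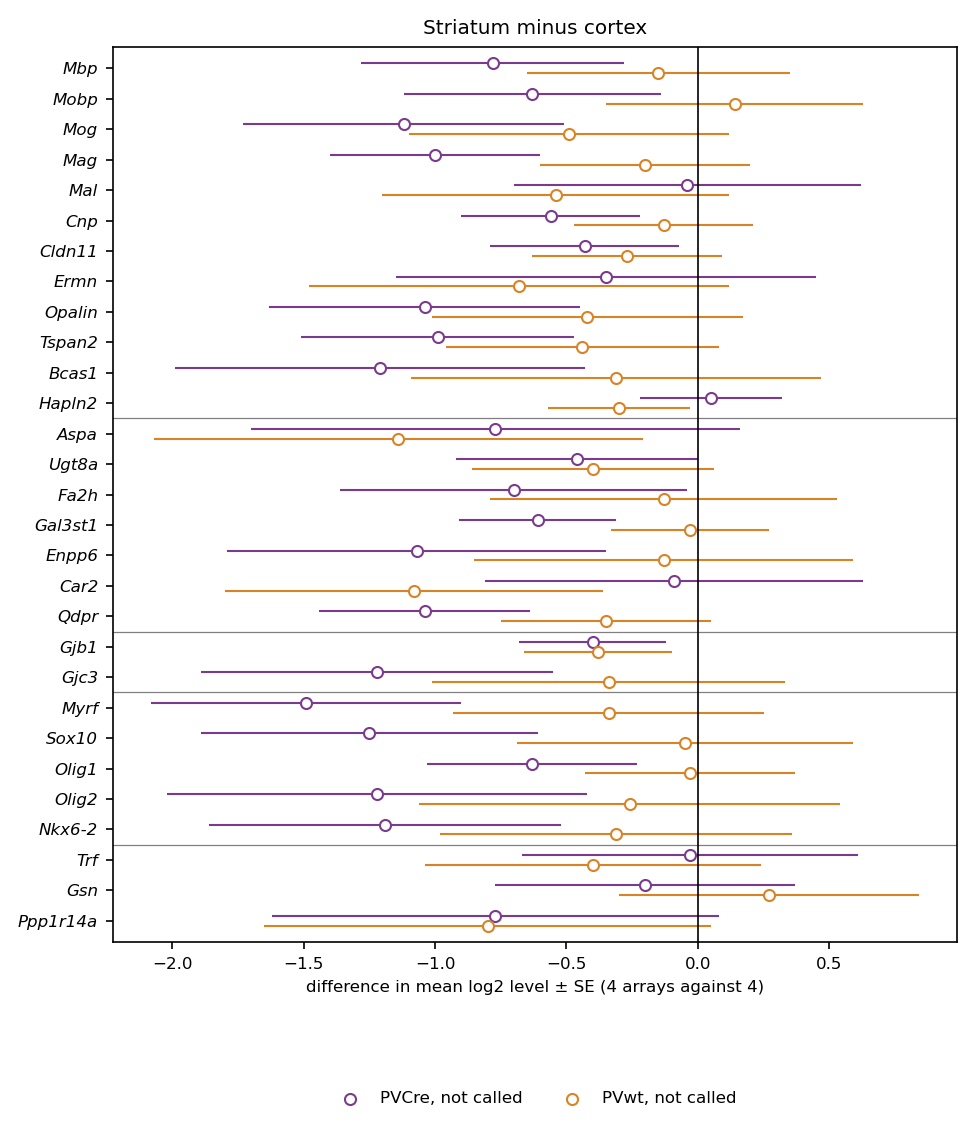
The difference striatum minus cortex in mean log2 level ± SE (4 arrays against 4) is shown for each member, in PVCre cells (purple) and PVwt cells (orange); all points are open because no adjusted p was under 0.05 in the fit without pairing. In PVCre cells 28 of 29 points and in PVwt cells 27 of 29 points lie left of 0.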

How the data were processed

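Sorted cells of 4 groups were measured on 16 arrays, 4 per group. What the authors deposited are log2 values; the submitters' processing notes name RMA and Affymetrix Expression Console. The software version and the arrays normalized together are not stated there. Values ran from 2.58 to 19.92 and array medians from 5.97 to 6.13. Why the top of the scale is so high is not known, so folds are as the deposited scale gives them. Of 72688 probe sets, 65956 were transcript clusters. Platform annotation, with 829 symbols updated through their Entrez number, gave 30890 of these a single gene, 1860 several and listed none for 33206. Where a gene had more than 1 cluster (355 genes), the one with the highest mean was used. The 33.3% of genes with the lowest mean level (under 5.53) were left out. No 2 arrays held identical values. Arrays have no read depth, and their number limits the precision.

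Tests used limma 3.58.1 (R 4.3.3) with lmFit and eBayes. All 16 arrays entered 1 fit with a mean for each group. P-values were adjusted by Benjamini-Hochberg over 20285 genes, with a threshold of 0.05. Levels carry the SD over 4 arrays and differences the SE of the fit. Comparisons were PVCre minus PVwt in each region, striatum minus cortex in each line and averaged over the lines, and the difference of these differences. In simulated arrays, the fit recovered 46% of 50 genes given a difference of 1 (log2) by line in striatum and 56% in cortex. By region it recovered 78% over both lines, 52% in PVwt and 64% in PVCre, and 32% for the difference of differences, with 5 to 11 false calls. The simulated noise had the same spread in all groups for a gene and was independent between arrays. The members spread far less in PVCre than in PVwt, where the replicates also split, so these shares do not describe the members. Deviations from the group means were correlated between same-numbered arrays to check the pairing. PVwt arrays of striatum and cortex gave r = 0.58 to 0.756 and were taken as pairs, although replicates 1 and 2 both matched 1 best and 3 and 4 both matched 3. In the other comparisons same-numbered arrays did not correlate throughout, and in PVCre cortex titles and descriptions number the replicates differently. Promoters came from RefSeq (250 bases before to 50 after the start).

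The members and the gene lists were chosen with earlier results of these data known. All members are named, and of each other list the 2 genes with the smallest adjusted p in a comparison, besides Pvalb, Gad1, Xist and markers at background. Alternatives were no filter or a stricter one (a mean of at least 6.28), centring each array on its median, quantile normalization, a trended and robust prior, weights per array, only the groups compared, the replicate number as a block, the control distance as a covariate, the mean over a gene's clusters, and each array left out. A further 3 were chosen after the data were seen, without the 6 arrays lowest in Pvalb, without the 8 arrays high in Xist, and with the replicate number as a block in PVwt only. Tables used pandas 2.3.3 and numpy 2.4.6 in Python 3.11.15, and plots matplotlib 3.10.9.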

Additional observations from a re-analysis of the deposited data

Results flagged for a closer look

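In 3 of 116 member and group combinations, 1 array lay far from the other 3 of its group; chance alone gives about 1 in 20. Mal, the myelin proteolipid, was at 17.91 in PVCre striatum replicate 2 and at 18.24 to 18.30 in the other 3 arrays. Car2, carbonic anhydrase II, was at 13.11 in PVCre striatum replicate 1 and at 12.07 to 12.24 in the others. Hapln2, the link protein of the node, was at 7.73 in PVCre striatum replicate 1 and at 7.02 to 7.14 in the others. All 3 genes had every PVCre striatal array above every PVwt striatal array.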

How the results depend on the processing

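Of 29 members, 11 passed the test by line in each region with the settings used throughout. In striatum 4 passed with the control distance as a covariate and 22 without the 6 arrays lowest in Pvalb. In cortex these numbers were 1 and 24. After quantile normalization 7 passed in cortex, all of them higher, as were 26.0% of all genes. Leaving out 1 array at a time gave 9 to 13 in striatum and 5 to 16 in cortex (5 without PVwt cortex replicate 1 or 2, 7 without PVCre cortex replicate 1). For striatum minus cortex 0 passed; over both lines 23 did with array weights (11.7% of all genes were lower), 15 with the replicate block (4.54%), 14 with the replicate block in PVwt only (3.84%), 10 without the 6 arrays and 0 to 1 with 1 array left out (1 without PVwt cortex replicate 2). In PVwt 3 passed with array weights (2.65%), 2 with the replicate block (0.833%), 1 with the block in PVwt only and 1 without the 6 arrays (1.87%). In PVCre 2 passed with array weights (5.23%), 14 when only the PVCre arrays were fitted, 16 with the replicate block, where the numbers do not pair the samples (4.84%), 16 with the block in PVwt only (4.0%) and 9 without the 6 arrays. With either replicate block 1 passed for the difference of differences, Sox10, which was below 0. Of all genes 0.281% were called below 0 with the block in both lines and 0.202% with it in PVwt only. For the line effects the block gave 9 in each region (16.9% of all genes higher and 32.0% lower in striatum, 17.6% and 31.2% in cortex). The other alternatives kept each count within 1.5 times. Among values by line that passed the test in one of the fits compared, directions turned for 6: with the control distance as covariate Gjb1 was at -0.01 in striatum and Ugt8a at -0.06 in cortex, and without the 6 arrays Gjc3 was at 1.10, Tspan2 at 0.81 and Bcas1 at 1.15 in striatum and Sox10 at 0.79 in cortex. Counting differences that passed in neither fit too, 10 members turned in striatum and 8 in cortex with the covariate, 5 and 4 without the 6 arrays, and 3 and 2 without the 8 arrays high in Xist. The causes were not tested. Signals of Gjb1 and Hapln2 near background limit their values in PVwt.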

Other observations

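A few genes beside the members differed between regions. Klk6, a secreted protease of oligodendrocytes, was higher in striatum than in cortex in PVCre cells (1.96 ± 0.38, adjusted p = 0.0073 in limma), whereas 28 of 29 members had a difference below 0 there. Gpd1, a glycerol-3-phosphate dehydrogenase, was lower in striatum in PVwt cells (-1.34 ± 0.26, adjusted p = 0.01 in limma) and over both lines (-1.08 ± 0.19, adjusted p = 0.0023). Hmgcs1, an enzyme of cholesterol synthesis, was lower in striatum over both lines (-1.0 ± 0.24, adjusted p = 0.029 in limma). Of 11 precursor markers tested, 0 passed the test between regions in either line. In PVCre cells 6 of 11 endothelial and pericyte markers rose in striatum against cortex, where 2.86% of all genes were called higher.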
